A study of Mus musculus with 13 samples.

Results

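The genes examined encode enzymes that remove or prevent R-loops. They are Rnaseh1, Rnaseh2a, Rnaseh2b, Rnaseh2c, Dhx9, Aqr, Top1, Top3b and Xrn2, 9 of the 22367 protein-coding genes in the mouse annotation used (GENCODE vM1, genome build mm9). The genes were chosen by name. For each gene, all peaks that overlapped its annotated bounds, extended by 1 kb on each side, were taken from the deposited peak lists. The 9 untreated lists held 170 such peaks, which fell into 44 separate regions.

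R-loops were profiled by DRIP-seq, in which genomic DNA is cut with restriction enzymes and RNA-DNA hybrids are pulled down with the S9.6 antibody and sequenced. The cells were N2a, a mouse neuroblastoma line, transiently transfected with scramble siRNA (siScramble), siRNA against the RNA helicase DDX1 (siDDX1) or siRNA against the RNA exosome subunit EXOSC3 (siEXOSC3). Each group had 3 untreated libraries and 1 library from DNA that was digested with RNase H before the pull-down, and the 1 input sample of the series was not analysed here. Peak lists do not measure DDX1 or EXOSC3 levels, so depletion was not checked here. All groups shared the transfection, and the controls received an siRNA with no intended target.

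In all 12 lists the treatment in the sample title was not the one written in the peak names, and the shift was the same throughout. Peaks carry the name siDDX1 where the title says siScramble, siEXOSC3 where it says siDDX1, and siScramble where it says siEXOSC3. The groups below follow the titles and are called "labelled". The tests across the 3 groups together, and the RNase H test, give the same values whichever naming is right. A direction between any pair of groups depends on it.

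Untreated lists differed in size within every group. They held between 23882 and 42571 peaks and covered between 21.97 and 45.32 Mb, whereas the RNase H lists held between 3811 and 8034 peaks and covered between 2.045 and 4.36 Mb. Of 12 neuroblastoma marker genes, Phox2a and Hand2 had a peak within 1 kb of the start in 9 of 9 untreated libraries and 7 had none in any. Of 8 marker genes of other cell types, none had such a peak in 9 of 9 libraries and 7 had none in any.

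An R-loop forms when nascent RNA pairs with its template DNA strand and leaves the other strand unpaired. RNase H enzymes cut the RNA of such hybrids, helicases unwind them, topoisomerases relax the negative supercoils behind RNA polymerase that favour them, and the exonuclease XRN2 degrades RNA at terminators. Loss of several of these proteins is known to raise R-loop levels, and the genes that encode them are themselves transcribed and can carry R-loops.

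Many peak edges at these genes lay on cuts of the restriction digest, so the cut sites that bounded recurring peaks are shown first. The 5 enzymes were used together. BsrGI recognises TGTACA. EcoRI recognises the letters GAATTC. HindIII acts at the site AAGCTT. SspI, which leaves blunt ends, recognises AATATT. XbaI has the recognition site TCTAGA. Each of these sites reads the same on both strands, and 12.47% of the 150-base windows upstream of 22355 protein-coding gene starts held at least 1 of them. Of the 340 edges of the 170 untreated peaks, 108 (31.76%) lay exactly on a cut by one of these enzymes. One or both edges matched a cut for 89 of the 170 peaks (52.35%), beside 52.69% to 64.59% of all peaks in the untreated lists. The share among the 9 genes therefore lay just below that range. By gene, the share of such peaks was 34 of 40 at Dhx9, 13 of 17 at Rnaseh1, 14 of 41 at Rnaseh2a, 3 of 19 at Xrn2 and 0 of 2 at Aqr.

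The windows below show, 5′ to 3′ on the strand of each gene (mm9), 30 bases around cut sites chosen from those that served as a peak edge in at least 4 untreated libraries, with the recognition site in capitals. They are shown because the same base recurred as an edge in separate libraries. At Dhx9 the SspI sites that bound the peak over the start were edges in 9 of 9 libraries, and the SspI site near the gene's end was an edge in 7.
Dhx9, upstream SspI site, chr1:155338402-155338431, minus strand: tgtatctaccttAATATTtcacagcttgca
Dhx9, SspI site in the gene, chr1:155332975-155333004, minus strand: tttatagatgggAATATTagtattttcctc
Dhx9, SspI site at the gene's end, chr1:155302703-155302732, minus strand: gattttagttaaAATATTtgtctttgaaaa
Rnaseh1, upstream HindIII site, chr12:29333970-29333999, plus strand: gggagagttgttAAGCTTggtggcaagtgc
Rnaseh1, XbaI site in the gene, chr12:29335781-29335810, plus strand: aaaaactcctgcTCTAGAaaagacactggg
Rnaseh2a, upstream HindIII site, chr8:87494213-87494242, minus strand: tctgtagtccgaAAGCTTgatttccttgaa
Rnaseh2a, SspI site in the gene, chr8:87482732-87482761, minus strand: ggcccaaaagaaAATATTttcaaaaaacaa
Rnaseh2c, BsrGI site past the gene's end, chr19:5604017-5604046, plus strand: gtaagcgtcacaTGTACAcagcagcttatg
Top1, upstream XbaI site, chr2:160471341-160471370, plus strand: aacttgtctggcTCTAGAgatgcagaagct

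The RNase H genes came first by role. Rnaseh1 (ENSMUSG00000020630.7, chr12:29334467-29344456, plus strand) encodes the RNase H1 enzyme, which acts alone and is also found in mitochondria. Its peaks covered 0, 2830 and 2505 bases in the libraries labelled siScramble, 2540, 700 and 805 bases in those labelled siDDX1, and 843, 680 and 2524 bases in those labelled siEXOSC3. The widest coverage and the narrowest came from within the same group, and the ranges of all 3 groups overlapped. The means were 1778 ± 1549, 1348 ± 1033 and 1349 ± 1021 bases (SD, n = 3 for each group), with an exact permutation p of 0.936.

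Rnaseh1 peaks sat at both ends of the gene. The restriction fragment over its start, from position −484 to position 1330 counted from the start in the direction of transcription, carried a peak in 7 of 9 untreated libraries, and in 2 of them the peak filled that fragment from cut to cut. A region at the gene's end, from 9053 to 10474, carried a peak in 6 of 9. A peak lay within 1 kb of the start in 6 of 9 libraries, 2 in each group, with fold enrichments between 4.281 and 7.432.

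Rnaseh2a (ENSMUSG00000052926.9, chr8:87480509-87493666, minus strand) encodes the catalytic subunit of RNase H2, the enzyme that also removes single ribonucleotides from DNA. Peaks covered 2110, 5351 and 4792 bases in the libraries labelled siScramble, 5943, 3569 and 3371 in those labelled siDDX1, and 4477, 4185 and 4700 in those labelled siEXOSC3. The 3 values labelled siEXOSC3 lay close together and inside the range of the other groups. The means were 4084 ± 1733, 4294 ± 1431 and 4454 ± 258 bases (SD, n = 3 for each group), with an exact permutation p of 0.946.

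Rnaseh2a was the most densely covered of the 9 genes, with 28.22% of its extended bounds under peaks in the mean of the untreated libraries. Its 3 regions, taken at full width, were each called in 9 of 9 untreated libraries. The region upstream ran from −4723 to 1313 and also held the start of Prdx2, a peroxiredoxin gene transcribed in the opposite direction, so its signal cannot be given to either gene. This upstream region reached past the added 1 kb, and the library labelled siScramble replicate 1 had a peak only in the part beyond. The region inside the gene ran from 2651 to 4815, and the region over the gene's end ran from 10716 to 14943 and reached into Rtbdn.

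Within 1 kb of the Rnaseh2a start, 8 of 9 untreated libraries had a peak, and only the library labelled siScramble replicate 1 had none. The fold enrichments were 5.347 and 4.497 in the other libraries labelled siScramble and 5.832, 5.26 and 4.17 in those labelled siDDX1. In the libraries labelled siEXOSC3 they were 8.465, 8.716 and 8.545. The siEXOSC3 folds lay above the other 5 only as listed, without centring on the library. The median fold over promoters called in every untreated library was 15.25 in siEXOSC3 replicate 3 and 7.89 in siDDX1 replicate 2. Relative to these medians, siEXOSC3 replicate 3 lay below siDDX1 replicate 2. The listed peaks that carried the siEXOSC3 folds reached to −2724, −3675 and −2722, beyond the −1002 reached by the farthest of the others. The siEXOSC3 peaks ended at −203, −560 and −560, upstream of the start and in the region shared with Prdx2. Peaks wholly beyond the added 1 kb were not listed, and a wide peak gives its fold to any window it touches. This difference in folds and reach was noticed after the values were seen. It was not tested, because the fold test covered only promoters called in every untreated library.

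Rnaseh2b and Rnaseh2c encode the accessory subunits of RNase H2. Rnaseh2b (ENSMUSG00000021932.7, chr14:62911426-62991829, plus strand) had 1 peak of 614 bases in an intron in the library labelled siScramble replicate 3, and no covered base in the other 8 untreated libraries. No peak lay within 1 kb of the outermost start or of the start of the transcript numbered 001, which begins 39479 bases farther along. The 1 peak ran from 37430 to 38043, upstream of the transcript 001 start and outside that window. With 1 non-zero value, the exact permutation p for the 3 groups was 1.

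Rnaseh2c (ENSMUSG00000024925.4, chr19:5601873-5603439, plus strand) had 314, 1532 and 1555 covered bases in the libraries labelled siScramble, 472, 0 and 0 in those labelled siDDX1, and 557, 1104 and 755 in those labelled siEXOSC3. Mean coverage was lowest in the libraries labelled siDDX1, although the 314 bases of siScramble replicate 1 lay below the 472 of siDDX1 replicate 1. Each value labelled siEXOSC3 exceeded each labelled siDDX1. The only peak of siEXOSC3 replicate 1 lay past the gene's end. Within the annotated bounds, without the added 1 kb, coverage was 0, 938 and 1032 bases in the libraries labelled siScramble, 0 in each labelled siDDX1, and 0, 709 and 755 in those labelled siEXOSC3, so all groups met at 0. The means were 1134 ± 710, 157 ± 272 and 805 ± 277 bases (SD, n = 3 for each group), with an exact permutation p of 0.114. The difference between the libraries labelled siEXOSC3 and siDDX1 was 648 bases, with a two-sided exact permutation p of 0.1, the smallest that 3 against 3 libraries allow. Without the library labelled siScramble replicate 1 the exact permutation p across the groups was 0.0107, and 6.25% of all tested genes then passed 0.05.

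Rnaseh2c is short, and its annotated start lies on a restriction fragment of 222 bases that ends 26 bases into the gene. No peak overlapped that start. A peak lay within 1 kb of it in 4 of 9 untreated libraries, 2 labelled siScramble and 2 labelled siEXOSC3, with folds between 4.335 and 8.364. The peaks ended at the BsrGI site shown above, at position 2160, in 4 libraries, and this stretch overlaps Kat5, a neighbouring acetyltransferase gene.

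**Figure D1:**
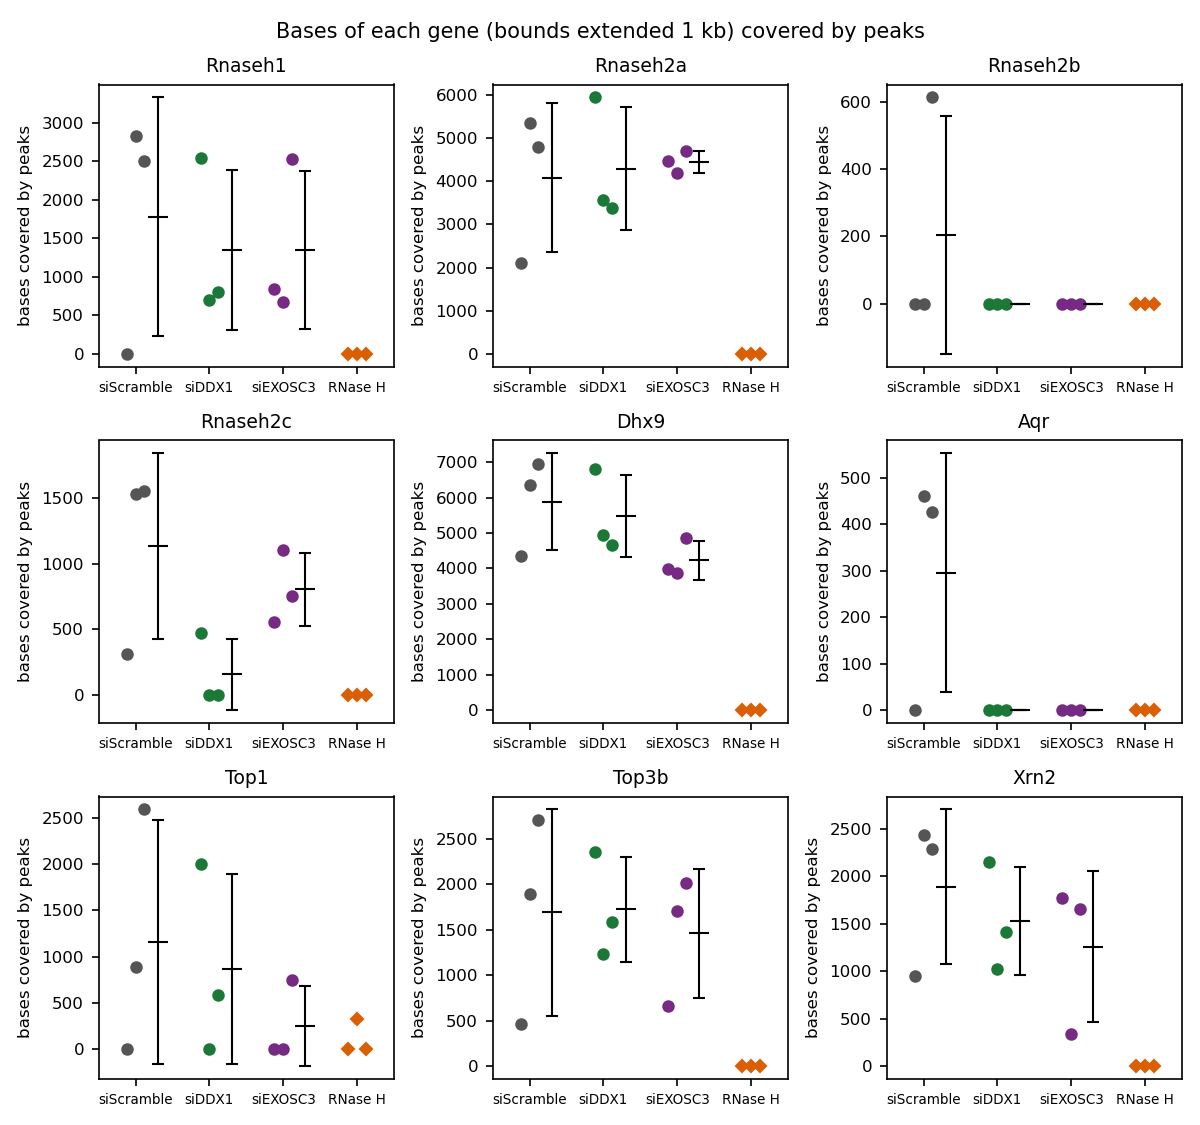
Bases covered by peaks (vertical axis, linear) at each of the 9 genes, bounds extended by 1 kb, by library. Circles are the 3 untreated libraries of each group by title, the dash and bar beside them are the mean ± SD (n = 3), and diamonds are the 3 RNase H libraries; the groups overlap for each gene except Rnaseh2c, where the libraries labelled siDDX1 (0 to 472 bases) lie below those labelled siEXOSC3 (557 to 1104 bases), which holds with the added 1 kb and not within the annotated bounds.

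Among the helicases, Dhx9 carried the strongest R-loop peak of the 9 genes. Dhx9 (ENSMUSG00000042699.5, chr1:155302888-155334790, minus strand) encodes a nuclear DExH-box helicase that unwinds RNA-DNA hybrids. The peak over its start, chr1:155332990-155338416, was 5427 bases wide and had the same first and last base in 9 of 9 untreated libraries, from −3626 to 1800. It filled the restriction fragment between the SspI sites shown above. None of the RNase H libraries had a peak there.

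The fold enrichment of this Dhx9 peak was 31.59, 39.87 and 31.5 in the libraries labelled siScramble, 42.64, 21.35 and 36.94 in those labelled siDDX1, and 35.51, 29.74 and 59.93 in those labelled siEXOSC3. The highest and the lowest value came from different groups, but the 3 groups overlapped. Each value lay between the 93.9th and the 98.0th percentile of the 2489 promoters called in all 9 untreated libraries. On the log2 scale, centred on the median of those promoters in each library, the means were 1.70 ± 0.16, 1.76 ± 0.29 and 1.73 ± 0.22 (SD, n = 3 for each group), with an exact permutation p of 0.936. The same test passed 0.05 in 13.7% of the 2489 promoters and in 0 of the 2 members among them, Dhx9 and Xrn2.

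Dhx9 had 2 further regions in every untreated library. A region inside the gene, from 20575 to 22247, carried a peak in 9 of 9, and in 4 of them the peak filled the SspI fragment from cut to cut. A region over the gene's end, from 30730 to 32243, also carried a peak in 9 of 9, with folds from 3.805 to 14.62 for the individual peaks. The remaining regions of Dhx9 were called in 1 or 2 libraries each.

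Covered bases at Dhx9 were 4346, 6349 and 6958 in the libraries labelled siScramble, 6806, 4949 and 4669 in those labelled siDDX1, and 3977, 3858 and 4848 in those labelled siEXOSC3. Values labelled siEXOSC3 lay toward the low end but overlapped both other groups. The means were 5884 ± 1367, 5475 ± 1161 and 4228 ± 541 bases (SD, n = 3 for each group), with an exact permutation p of 0.232.

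**Figure D2:**
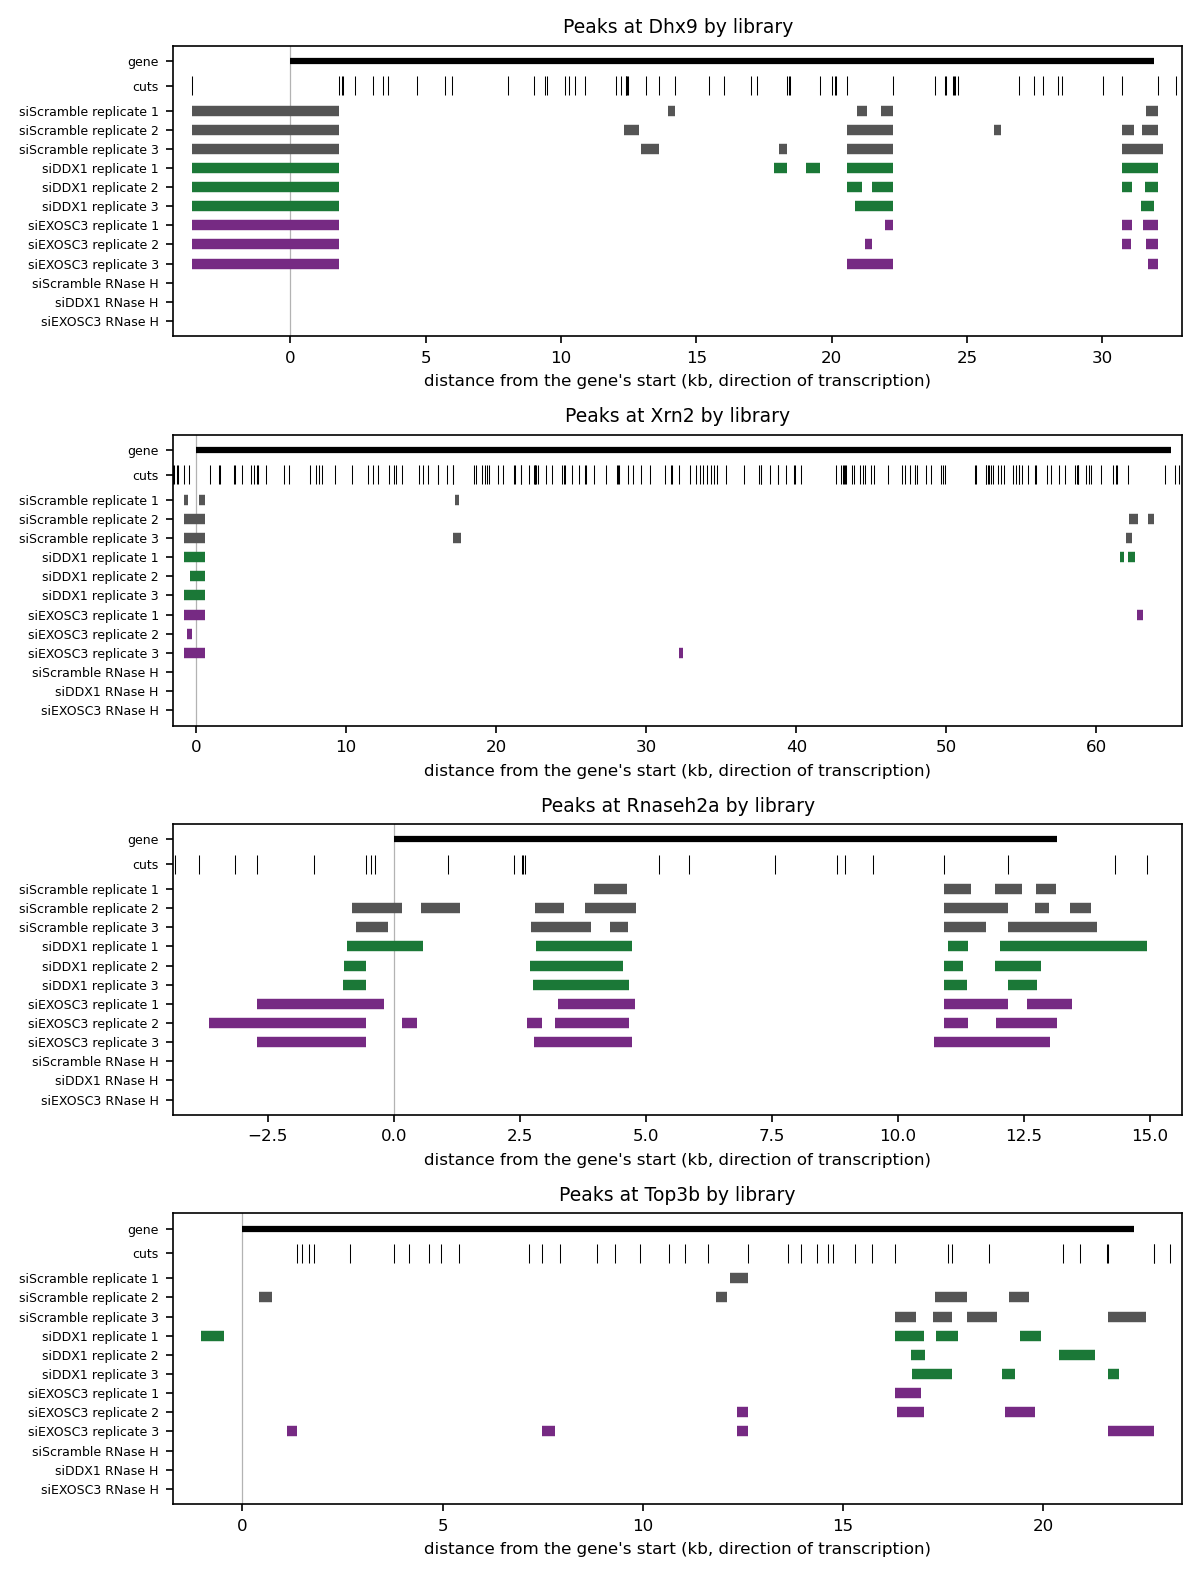
Peaks at Dhx9, Xrn2, Rnaseh2a and Top3b in the 12 libraries (rows), against distance from the gene's start in kb in the direction of transcription. The black bar is the gene, ticks are cut sites of the 5 enzymes, grey, green and purple blocks are peaks of untreated libraries labelled siScramble, siDDX1 and siEXOSC3, and no RNase H library has a peak at these genes; the Dhx9 block over the start spans −3626 to 1800 bases in 9 of 9 untreated libraries.

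Aqr (ENSMUSG00000040383.10, chr2:113926906-114012760, minus strand) encodes aquarius, a helicase of the spliceosome whose loss is known to raise R-loops. Peaks covered 0, 461 and 426 bases in the libraries labelled siScramble and 0 bases in each of the 6 libraries labelled siDDX1 or siEXOSC3. The 2 peaks did not overlap each other, and no base of the gene was covered in more than 1 library. For the 3 groups the exact permutation p was 0.25. Aqr entered the test only through these siScramble peaks.

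No untreated library had a peak within 1 kb of any annotated Aqr transcript start. The outermost start belongs to a noncoding transcript on a restriction fragment of 440 bases. The start of the transcript numbered 001 lies 11685 bases farther along, on a fragment of 150 bases. Of the 2042 protein-coding genes whose outermost start lay on a fragment under 500 bases, 87.61% had no promoter peak in any untreated library.

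Of the topoisomerase genes, Top1 (ENSMUSG00000070544.5, chr2:160471624-160548500, plus strand) encodes the enzyme that relaxes supercoils by nicking a DNA strand. Its covered bases were 0, 892 and 2592 in the libraries labelled siScramble, 1998, 0 and 589 in those labelled siDDX1, and 0, 0 and 746 in those labelled siEXOSC3. Each group held at least 1 library with no peak at Top1. The means were 1161 ± 1317, 862 ± 1027 and 249 ± 431 bases (SD, n = 3 for each group), with an exact permutation p of 0.55.

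In 4 untreated libraries a Top1 peak began at the XbaI site shown above, at −270, and ended between 231 and 442. In 3 of these 4 a further peak lay between 642 and 1583. The strongest peak within 1 kb of the start had folds of 4.166, 6.027, 5.672 and 8.634. Top1 was also the only one of the 9 genes with a peak in an RNase H library, 325 bases from 12266 to 12590 in the library labelled siDDX1, with a fold of 4.157 and no untreated peak at that place.

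Top3b (ENSMUSG00000022779.8, chr16:16870829-16893083, plus strand) encodes a topoisomerase that acts on DNA and RNA. It had 466, 1894 and 2704 covered bases in the libraries labelled siScramble, 2348, 1227 and 1588 in those labelled siDDX1, and 660, 1702 and 2013 in those labelled siEXOSC3. All groups spanned a similar range. The means were 1688 ± 1133, 1721 ± 572 and 1458 ± 709 bases (SD, n = 3 for each group), with an exact permutation p of 0.911.

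Top3b peaks lay mostly in the downstream part of the gene. A region from 16281 to 18082 carried a peak in 7 of 9 untreated libraries and a region from 18972 to 19928 in 4. Near the outermost start, 2 of 9 libraries had a peak, each at a different place. When any annotated transcript start was allowed, 9 of 9 had one, as several annotated transcripts begin inside the gene.

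Xrn2 (ENSMUSG00000027433.5, chr2:146838732-146903736, plus strand) encodes the nuclear 5′ to 3′ exonuclease of transcription termination. Its covered bases were 953, 2428 and 2285 in the libraries labelled siScramble, 2145, 1020 and 1415 in those labelled siDDX1, and 1768, 339 and 1655 in those labelled siEXOSC3. Each group held a low and a high library. The means were 1889 ± 814, 1527 ± 571 and 1254 ± 794 bases (SD, n = 3 for each group), with an exact permutation p of 0.579.

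The Xrn2 promoter carried a peak in 9 of 9 untreated libraries, and in 6 of them the peak had the same edges, from −810 to 604. These edges were not on the exact base of a cut, although an SspI cut lies at −811, next to the upstream edge. The fold enrichments were 5.275, 13.01 and 10.85 in the libraries labelled siScramble, 11.78, 7.377 and 12.31 in those labelled siDDX1, and 9.942, 4.893 and 10.94 in those labelled siEXOSC3. These folds were well below those of Dhx9 in the same libraries. Centred on the library as above, the means were −0.22 ± 0.49, 0.10 ± 0.27 and −0.57 ± 0.45 on the log2 scale (SD, n = 3 for each group), with an exact permutation p of 0.243.

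**Figure D3:**
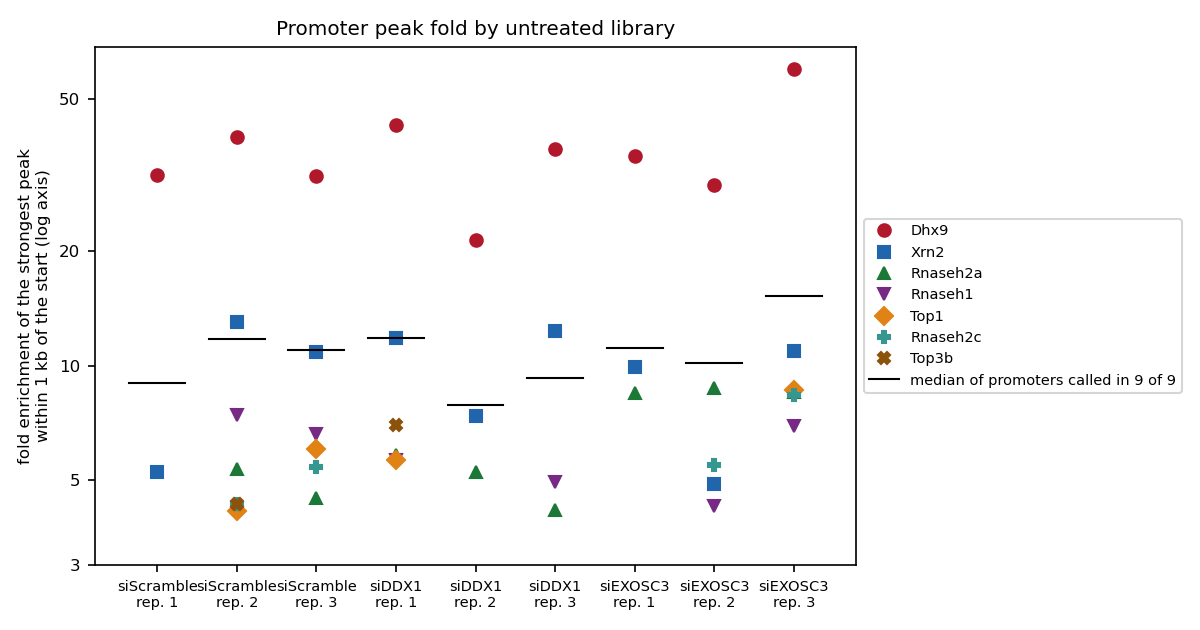
Fold enrichment (vertical log axis) of the strongest peak within 1 kb of the start, by untreated library, for the 7 genes with such a peak; a missing symbol means no peak in that library. Black bars are the median over the 2489 promoters called in 9 of 9 libraries; Dhx9 lies between 21.35 and 59.93, above the bar in each library, and Xrn2 lies between 4.893 and 13.01.

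The 9 genes together ranged from no promoter peak to a peak in every untreated library. Dhx9 and Xrn2 had one in 9 of 9 libraries, Rnaseh2a in 8, Rnaseh1 in 6, Top1 and Rnaseh2c in 4, Top3b in 2, and Aqr and Rnaseh2b in 0. Among all protein-coding genes, 11.13% had a promoter peak in 9 of 9 and 65.95% in 0. None of the 9 had one in an RNase H library, where only 347 of all 22367 protein-coding genes had one in any. Fewer members kept 9 of 9 under stricter rules, and Dhx9 was the only one when the peak had to overlap the start or to have a −log10 q of at least 5.

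**Figure D4:**
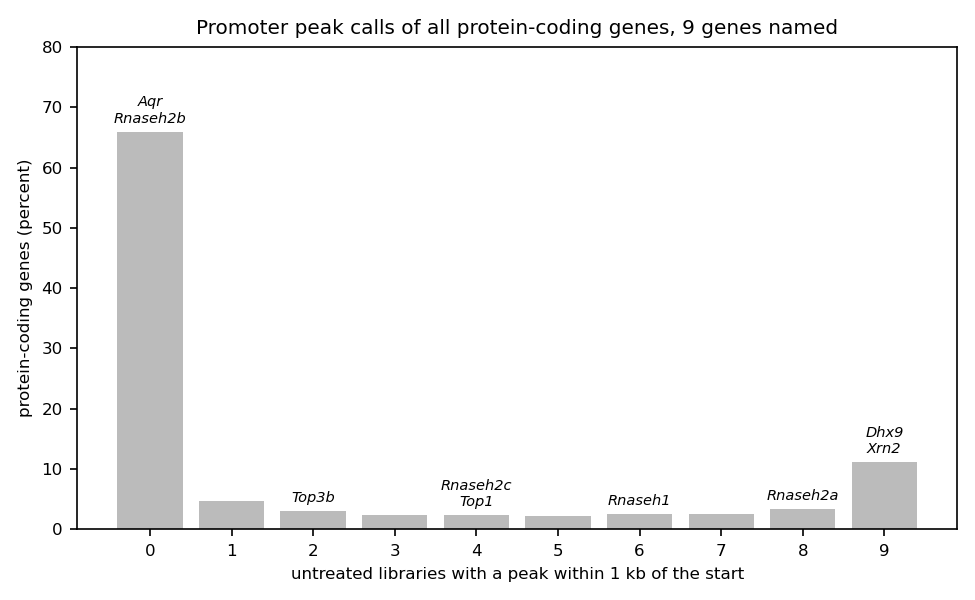
Percent of the 22367 protein-coding genes (bars, vertical axis) by the number of untreated libraries with a peak within 1 kb of the start (horizontal axis), with the 9 genes named above their bars. Most genes are at 0 (65.95%), where Aqr and Rnaseh2b lie, and 11.13% are at 9, where Dhx9 and Xrn2 lie.

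The sequence at the starts is shown for the 2 members called in every library and for Rnaseh2b, which was called near its start in none. The 150 bases before the transcript start are given 5′ to 3′ in mm9, with each CG in capitals. For Rnaseh2b the start is that of transcript 001.
Dhx9, chr1:155334791-155334940, minus strand: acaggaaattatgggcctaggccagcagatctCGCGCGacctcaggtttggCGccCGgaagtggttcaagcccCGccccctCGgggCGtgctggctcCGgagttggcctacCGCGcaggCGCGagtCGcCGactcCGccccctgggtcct
Xrn2, chr2:146838582-146838731, plus strand: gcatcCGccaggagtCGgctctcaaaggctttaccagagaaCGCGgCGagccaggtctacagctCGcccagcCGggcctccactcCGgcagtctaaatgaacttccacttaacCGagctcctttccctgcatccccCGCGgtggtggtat
Rnaseh2b, chr14:62950755-62950904, plus strand: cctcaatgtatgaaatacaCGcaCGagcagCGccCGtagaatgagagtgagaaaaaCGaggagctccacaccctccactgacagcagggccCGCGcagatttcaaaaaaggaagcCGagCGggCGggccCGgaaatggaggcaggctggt

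These windows held 16 CG at Dhx9, 11 at Xrn2 and 11 at Rnaseh2b. The window before the transcript 001 start of Aqr, which also had no promoter peak and is not shown, held 2. CG reads the same on both strands, 87.37% of the windows before all protein-coding gene starts held at least 1, and their median was 6. Over the 1000 bases around the start, the GC content was 60.9% at Dhx9 and 59.3% at Xrn2, beside a median of 61.7% among genes with a promoter peak in 9 of 9 libraries and 51% among those with one in 0. At the outermost start of Rnaseh2b, which had no promoter peak, it was 64.1%, above all of these, and at that of Aqr it was 42.9%. Around the transcript 001 start it was 57.2% at Rnaseh2b and 47.9% at Aqr, whereas the medians use outermost starts.

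GC skew, the excess of G over C on the coding strand as a share of both, was measured over the first 500 bases. It was 0.16 at Dhx9 (84.7th percentile of all genes), 0.04 at Xrn2 (49.7th percentile) and −0.14 at Top1 (7.47th percentile). The medians were 0.07 among genes with a promoter peak in 9 of 9 libraries and 0.03 among those with one in 0. The fragment over the Dhx9 start, 5427 bases, was longer than 98.8% of those over all starts. The Top3b start lay on a fragment of 5658 bases and had a promoter peak in 2 of 9 libraries. Over all genes, 36.9% of the 393 with a start fragment of at least 5000 bases had a promoter peak in 9 of 9 libraries, against 2.94% of the 2042 with one under 500 bases. These values describe the sequence and the digest, and their part in the calls was not tested.

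Across the 3 groups, 0 of the 9 genes passed an exact permutation p of 0.05 for covered bases (n = 3 per group, 280 deals of the libraries, smallest possible p 0.00357). In the same test 2.79% of the 11156 protein-coding genes with a covered base passed, and after Benjamini-Hochberg adjustment the lowest adjusted p over all of them was 1. A p above 0.05 with 3 libraries a group does not show that coverage was equal. Between pairs of groups, ranges did not overlap for 0 of 9 genes in siDDX1 against siScramble (2.68% of all tested genes), 0 of 9 in siEXOSC3 against siScramble (9.96%) and 1 of 9, Rnaseh2c, in siEXOSC3 against siDDX1 (7.42%). Within annotated bounds the last count was 0 of 9 (7.39% of all genes), an alternative chosen after seeing the data. The comparisons with siScramble share its libraries.

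The amount covered varied with the library. Summed over the 9 genes it was 8189, 21737 and 24431 bases in the libraries labelled siScramble, 22252, 11465 and 12437 in those labelled siDDX1, and 12282, 11868 and 17241 in those labelled siEXOSC3. The libraries with the longest lists were high in each group. The sum rose with the covered length of the whole list, with a Pearson r of 0.943 and a Spearman rho of 0.883 over the 9 libraries, and an r of 0.9 and a rho of 0.786 without the 2 libraries farthest from the median length. These are descriptions, since the sum is part of the list. As a share of each list, the 9 genes made up between 0.0354% and 0.0559%.

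**Figure D5:**
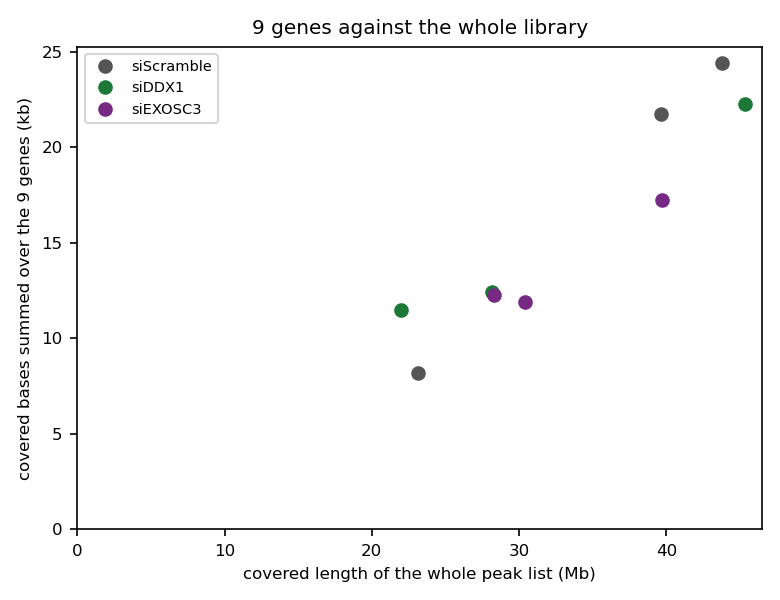
Covered bases summed over the 9 genes (kb, vertical axis) against the covered length of the whole peak list (Mb, horizontal axis) for the 9 untreated libraries, coloured by group. The sum rises from 8189 bases in a list of 23.16 Mb to 24431 bases in a list of 43.74 Mb, and libraries of each group are spread along this line.

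Almost no peaks were called at these genes in DNA digested with RNase H before the pull-down. The RNase H libraries had 0 covered bases at 8 of the 9 genes and 325 bases at Top1 in 1 library. Dhx9, Rnaseh2a, Top3b and Xrn2, each covered in 9 of 9 untreated libraries, had 5196, 4278, 1622 and 1556 fewer covered bases with RNase H in the mean (two-sided exact permutation p = 0.0156 each, the smallest that 64 assignments allow, and adjusted p = 0.0368 over all tested genes). Rnaseh2c fell by 698.8 bases (exact permutation p = 0.0469, adjusted p = 0.0877). Rnaseh1 had p = 0.0625, and Top1, Aqr and Rnaseh2b had p of 0.313, 0.75 and 1 in the same exact permutation test. The 5 of 9 genes with p under 0.05 compare with 52.1% of all tested genes. Genes entered this test only through a covered base in an untreated library, so a fall with RNase H was favoured in advance. These p-values therefore describe the calls and are not separate evidence of a fall.

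The RNase H lists were several times shorter throughout, and 81.55% of all tested genes had no covered base in them. When all 12 lists were reduced to the same 3811 strongest peaks, only Dhx9 of the 9 genes kept an exact permutation p under 0.05 (42.3% of all genes tested there), and with peaks of a −log10 q of at least 5 only Dhx9 and Rnaseh2a did (46.2%).

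A wider list of 38 genes tied to R-loops, which shares no gene with the 9, was described in the same way. It holds other helicases (such as Ddx5 and Ddx21), topoisomerases, export and splicing factors, Fanconi and BRCA genes and nuclear exosome genes. A promoter peak was called in 9 of 9 untreated libraries for 16 of the 38 (11.13% of all protein-coding genes) and in 0 for 12 (65.95%). The median was 7.5 libraries, against a median of 4 for the 9 genes and 0 for all protein-coding genes. Of 37 with a covered base, 0 passed an exact permutation p of 0.05 across the groups (2.79% of all tested genes). In the RNase H comparison 25 passed (52.1% of all tested genes). Top3a, the sister topoisomerase gene of Top3b, had a promoter peak in 9 of 9 libraries. Xrn1, the cytoplasmic counterpart of Xrn2, had one in 5.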

How the data were processed

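The 12 peak lists of 9 untreated and 3 RNase H libraries were used as deposited. The authors fragmented DNA with 5 restriction enzymes, pulled down hybrids, aligned reads to mm9 with Bowtie2 2.4.4, sorted them with SAMtools and called peaks per library against input with MACS2 2.2.6. Each deposited list gives the fold enrichment of a peak as a linear ratio and its p-value and q-value as −log10, and read counts were not used here. The lists hold peaks down to a −log10 q of 2, so a weaker signal is not seen, and no depth or counting interval can be given.

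Covered bases of each protein-coding gene (GENCODE vM1 bounds extended by 1 kb) were counted per library. Genes with a covered base in an untreated library (11156) were compared across the 3 groups by an exact permutation test of the F statistic over 280 deals, between pairs of groups over 20 assignments, and between RNase H and untreated libraries by moving the RNase H label within groups (64 assignments), with Benjamini-Hochberg adjustment over all tested genes. A promoter peak lies within 1000 bases of the outermost start. Its log2 fold was centred on each library's median over promoters called in 9 of 9. The named genes are the 9 genes, members of the fixed lists and neighbours with a start in a promoter peak. Rtbdn and Kat5, which gene-end regions overlap, were named after the values were seen. The genes and lists were chosen with earlier results of these data known. The methods describe biological triplicates. Tests were tried on simulated data. Cut sites and sequences were read from the mm9 genome, on which 0 peaks ran past a chromosome end. Python 3.11.15, numpy 2.4.6, scipy 1.17.1 and matplotlib 3.10.9 were used. Alternatives covered the peak threshold, list length, joining of peaks, gene bounds, scaling, start definition, replicate number and each untreated library left out.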

Additional observations from a re-analysis of the deposited data

How the results depend on the processing

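Across 217 recomputed values, 200 kept their call or stayed within 1.5 times. For covered bases across the groups, the number of the 9 genes with an exact permutation p under 0.05 was 0 under each alternative on all 9 libraries, and ranged from 0 to 2 when each library was left out in turn. The 2, both without siScramble replicate 1, were Rnaseh2c (exact permutation p = 0.0107) and Aqr, which is no call since it entered the test only through its siScramble peaks. At that setting 6.251% of all genes passed. The share of all tested genes that passed moved from 2.788% to 5.341% with equal list lengths, to 8.793% with covered bases scaled to the library, to 8.297% without siDDX1 replicate 1 and to 1.813% without siScramble replicate 2.

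For promoter peaks, the number of the 9 genes called in 9 of 9 untreated libraries moved from 2 to 1 when the peak had to overlap the start, to 1 at a −log10 q of at least 5, and to 4 with any annotated transcript start (adding Rnaseh2a and Top3b), and the calls over 9 genes and 9 libraries fell from 42 to 26 when the peak had to overlap the start. Genes with p under 0.05 in the RNase H comparison fell from 5 (52.1% of all genes) to 2 at a −log10 q of at least 5 (46.19%) and to 1 with equal list lengths in 12 libraries (42.33%). With equal list lengths, 1 gene, Rnaseh2a, lay without overlap higher in siEXOSC3 than in siScramble, where 13.84% of all genes did not overlap, against 0 with the full lists (9.96%). Within annotated gene bounds, chosen after seeing the data, 0 genes in place of 1 lay without overlap between siEXOSC3 and siDDX1 (7.39%).

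Deviations of same-numbered libraries had correlations of both signs, from −0.8094 to 0.8393. These values do not settle whether the numbers pair the samples. With a replicate block, 0 of the 9 genes passed 0.05, Dhx9 had p = 0.333 for covered bases and 0.917 for promoter fold by exact permutation, and 0.5109% of all tested genes passed. The causes of these shifts were not tested.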
